A study of Mus musculus with 4 samples.

Results

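PGC-1α-overexpressed HT-22 cells were compared with control HT-22 cells under normal culture, without oxygen and glucose deprivation (OGD). HT-22 is an immortalized mouse cell line of hippocampal origin, labelled as hippocampal neurons. The Ctrl library came from cells with a negative control lentivirus and the PGC-1α library from cells with a PGC-1α-overexpressing lentivirus. Both cell populations were selected with puromycin, and neither of these libraries had any further treatment. The other 2 of the 4 libraries, Ctrl+OGD and PGC-1α+OGD, were made from the same kinds of cells after 2 h of OGD and 24 h in normal medium, and they are given here only for reference. Each condition had 1 library, so no difference has a replicate check, no error can be given and no p value was computed.

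Members of the comparison were chosen by level. The deposited transcripts of each gene symbol were summed, and 10604 of 11502 genes had a mean of at least 1 FPKM (fragments per transcript length and sequencing yield) over the 4 libraries. Of these genes, 10211 lie outside energy metabolism and are described here. Differences are log2 fold changes of FPKM + 1 for PGC-1α vs Ctrl, a scale on which low genes look less changed than they are. The terms higher and lower refer to differences of 1.5-fold and above. Where 4 levels are listed for a gene, control and PGC-1α without OGD come first and control and PGC-1α after OGD second, and a signed number in parentheses is the log2 fold change of PGC-1α vs Ctrl. Where a gene had several deposited transcripts, an estimator can move reads between them, so weight was given to steady genes, which have either 1 deposited transcript or all transcripts with a mean of at least 1 FPKM in Ctrl and PGC-1α differing in the direction of their sum; transcripts below that level could differ the other way.

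PGC-1α, encoded by Ppargc1a, is a transcriptional coactivator. It binds no DNA itself and is recruited to promoters by factors such as the estrogen-related receptors, the nuclear respiratory factors and PPAR receptors. It is best known for switching on mitochondrial genes in muscle, brown fat, liver and brain, and it also docks on factors with targets outside the mitochondrion.

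With PGC-1α overexpression, 521 genes (4.91%) were higher and 597 genes (5.63%) were lower than in Ctrl by at least 1.5-fold. Steady genes made up 416 of the higher and 464 of the lower genes, which together is 8.3% of all genes compared. Genes with 1 deposited transcript contributed 197 and 201 of these. Of all 10604 genes compared, 7243 were steady, so most genes have this trait whatever their difference. It does not cover reads shared between overlapping genes. Energy metabolism, with 393 genes compared, held 61 of the higher and 8 of the lower genes, so that 460 higher and 589 lower genes lie outside it. The median log2 fold change of all genes was -0.03, 54.2% of genes lay below 0 and 45.8% above it, and the middle 90% of genes lay between -0.62 and 0.58. Low genes passed the threshold more often than abundant ones: 18.0% of genes with a mean of 1 to 2 FPKM did so, against 6.75% of those between 20 and 100 FPKM.

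**Figure D1:**
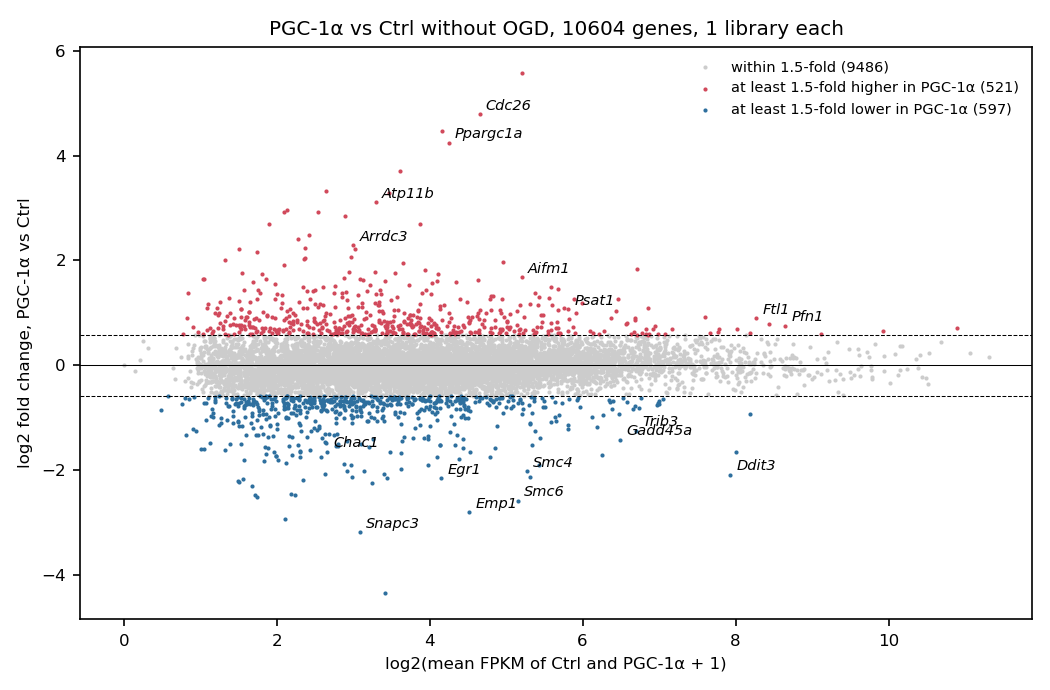
Each point is 1 of 10604 genes. The x axis gives the log2 of the mean FPKM of Ctrl and PGC-1α plus 1, the y axis the log2 fold change of PGC-1α vs Ctrl, and dashed lines mark 1.5-fold. Red points are the 521 higher genes and blue points the 597 lower genes, and the spread is widest among genes of low level.

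The Ctrl library stood apart from the other 3 libraries more than PGC-1α did. It was at least 1.5-fold above the median of the other 3 in 625 genes and below it in 522, against 389 and 369 for PGC-1α. Of the 521 higher genes, Ctrl was the lowest of the 4 libraries in 405 and PGC-1α the highest in 309. Of the 597 lower genes, Ctrl was the highest in 464 and PGC-1α the lowest in 381. A difference of PGC-1α vs Ctrl can therefore not be told apart from a deviation of the Ctrl library alone where the OGD libraries lie with PGC-1α, and the levels in all 4 libraries are given for most of the genes described. Both PGC-1α libraries lay above both control libraries in 12.8% of all genes and below both in 16.8%. Among the 521 higher genes 266 lay above both, and among the 597 lower genes 272 lay below both. These are the counts to set beside single genes named for being higher or lower.

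Neuronal markers, set against the label of hippocampal neurons, were mostly absent from the table. Of 25 neuronal markers, 4 are listed (Eno2, Syp, Dlg4 and Camk2a), with a summed level of 11.4 FPKM in Ctrl and 7.07 in PGC-1α, while Map2, Tubb3, Rbfox3, Syn1 and Nefl are not listed in the table used here. Of 12 markers of fibroblasts and mesenchyme, 8 are listed, and they summed to 1305 FPKM in Ctrl and 1427 in PGC-1α, and 1728 and 1398 FPKM in the same cells after OGD. Markers of astrocytes (5 of 8 listed) summed to 45.2 and 54.8 FPKM in Ctrl and PGC-1α, those of the oligodendrocyte lineage (3 of 10) to 72.9 and 78.3, and those of microglia (3 of 8) to 1.56 and 3.13. A single marker was listed for neural progenitors, Pax6, at 12.7 and 9.42 FPKM, and 1 of 6 for endothelium, at 0.890 and 0.532 FPKM. Fewer cells of a kind and less RNA per cell cannot be told apart in such bulk libraries.

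The overexpressed gene was far higher in PGC-1α, while most of the factors it works with stayed within 1.5-fold. Ppargc1a (chromosome 5, 51454250 to 51567726, minus strand, GRCm38) had 0.900 FPKM in Ctrl and 35.1 in PGC-1α, a log2 fold change of 4.25, and 0.103 and 8.41 FPKM in the same cells after OGD. Both of its deposited transcripts were higher in PGC-1α. These values do not separate transcripts from the lentivirus from those of the cells' own gene. Among 40 partners and regulators of PGC-1α, 1 was higher (2.5%, against 4.91% of all genes) and none was lower. In all, 30 of the 40 lay below 0 (75%, against 54.2% of all genes), with a median of -0.07. The higher one was Esrra, which encodes estrogen-related receptor α and is itself a known target of the complex it forms with PGC-1α. Esrra had 4.73 FPKM in Ctrl and 8.75 in PGC-1α, and 5.13 and 7.30 FPKM in the same cells after OGD, so both PGC-1α libraries lay above both controls. The related coactivator Ppargc1b (log2 fold change -0.05), the nuclear respiratory factor Nrf1 (-0.19) and the mitochondrial transcription factor Tfam (-0.01) stayed within 1.5-fold. Mef2a, a muscle and neuron transcription factor that drives and binds PGC-1α, had the lowest value of the list at -0.58.

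Among the 32 lists, the share of lower genes was largest in immediate early genes, the genes that growth factor and MAP kinase signaling switches on within minutes, together with the phosphatases and Sprouty proteins that feed back on that pathway. Of 42 such genes, 15 (35.7%) were lower and 1 was higher, against 5.63% and 4.91% of all genes. In all, 35 of the 42 lay below 0 (83.3%, against 54.2% of all genes), and the median of -0.35 was the lowest among the 32 lists. The 26 members with 1 deposited transcript also had a median of -0.35. In the pair with OGD the median was -0.08, with 1 gene lower and 0 higher. Ctrl was the highest of the 4 libraries in 32 of the 42 genes, against 34.5% of all genes, and PGC-1α was the lowest in 9.

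Egr1, the early growth response transcription factor, had 27.9 FPKM in Ctrl and 5.49 in PGC-1α, a log2 fold change of -2.16, and 4.14 and 3.45 FPKM in the same cells after OGD. Dusp6, the phosphatase that switches off ERK, had 39.8, 17.2, 15.6 and 15.1 FPKM (-1.16). Both genes were high in Ctrl alone, and the other 3 libraries lay close together. Ier2, a nuclear immediate early protein, had 28.4, 13.7, 15.7 and 11.1 FPKM (-1.002), and Klf4, a zinc finger factor of growth arrest and pluripotency, had 14.9, 7.05, 7.47 and 7.43 FPKM (-0.98). Btg2, an antiproliferative early gene that p53 also induces, had 8.31, 3.36, 4.08 and 2.9997 FPKM (-1.09). The AP-1 subunit gene Junb had 35.5, 22.6, 14.4 and 12.9 FPKM (-0.63), and its relative Jun stayed within 1.5-fold at -0.42. Arc, which neurons use in synaptic plasticity, had 12.3, 7.47, 5.94 and 5.47 FPKM (-0.66).

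Other lower members were Ier3 (-0.96), Klf6 (-0.68), Zfp36l1 (-0.65), Dusp4 (-0.64), Egr3 (-0.64), Spry4 (-0.62), Ereg (-0.59) and Myc (-1.21). Ier3 had 24.6 FPKM in Ctrl and 12.1 in PGC-1α, and 19.2 and 12.8 FPKM in the same cells after OGD. Both PGC-1α libraries lay below both controls for this gene, as in 12 of the 42 members, Ier2, Klf4 and Btg2 among them. Dusp4, a nuclear MAP kinase phosphatase, had 16.1, 9.94, 8.25 and 5.79 FPKM. Myc, the growth-promoting transcription factor, had 6 deposited transcripts that did not all differ in the same direction. The 1 higher gene, Klf10 (1.00), a TGF-β-inducible factor, was not steady either. Fos, Fosb, Egr2 and Nr4a1 were not compared.

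**Figure D2:**
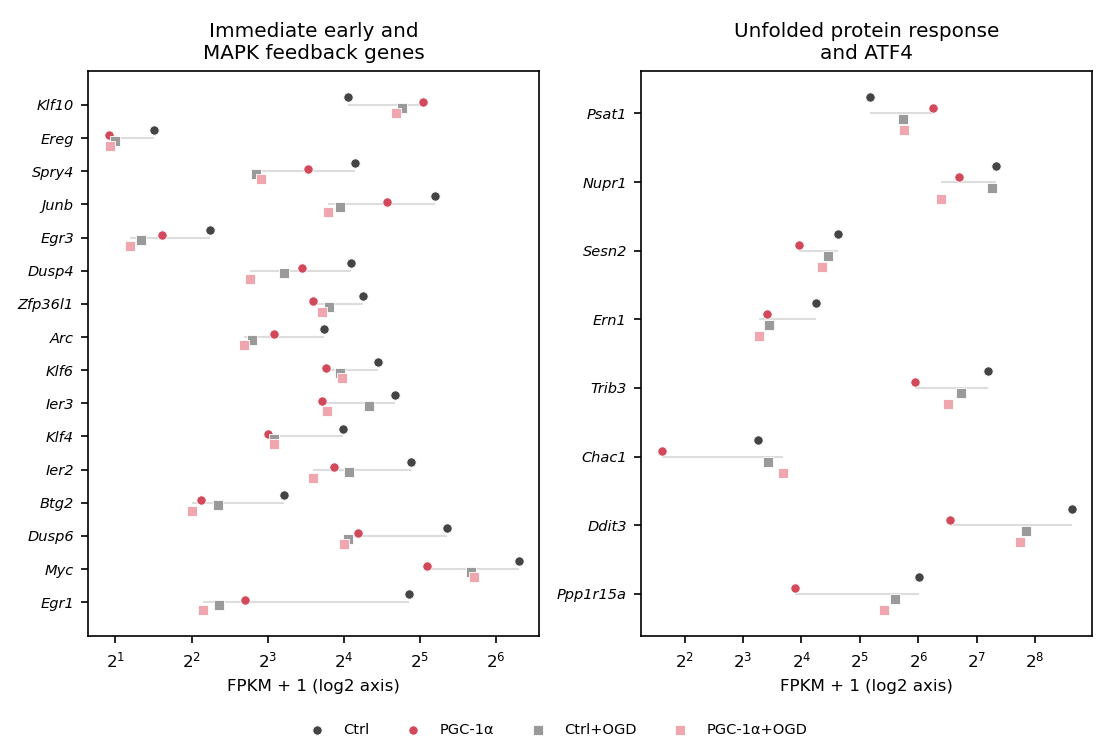
FPKM + 1 on a log2 axis in the 4 libraries for the members past 1.5-fold of the immediate early list (left, 16 genes) and of the unfolded protein response and ATF4 list (right, 8 genes); circles are libraries without OGD and squares libraries after OGD. Ctrl is the rightmost point for most genes on the left, and PGC-1α is the leftmost for Ddit3, Ppp1r15a, Chac1, Trib3 and Sesn2 on the right.

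Among genes of the unfolded protein response and ATF4, Ddit3, Ppp1r15a, Chac1, Trib3, Ern1, Sesn2 and Nupr1 were lower in PGC-1α and Psat1 was higher, and the rest of the list stayed within 1.5-fold. When the endoplasmic reticulum is overloaded or amino acids run short, phosphorylation of eIF2α favors translation of the transcription factor ATF4, which induces CHOP (Ddit3) and other genes. Of 47 genes of this response, 7 (14.9%, against 5.63% of all genes) were lower and 1 was higher, while 23 lay above and 24 below 0 and the median was -0.00. Ddit3 had 393 FPKM in Ctrl and 91.8 in PGC-1α, a log2 fold change of -2.09, and 228 and 212 FPKM in the same cells after OGD. Ppp1r15a, which encodes the GADD34 subunit that reverses eIF2α phosphorylation, had 63.5, 13.8, 47.5 and 41.5 FPKM (-2.13). PGC-1α was the lowest and Ctrl the highest library for both genes, with the OGD libraries near each other in between.

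Trib3, a pseudokinase that CHOP and ATF4 induce, had 145 FPKM in Ctrl and 60.8 in PGC-1α (-1.25) and 106 and 90.3 FPKM in the same cells after OGD. Chac1, which degrades glutathione, had 8.57, 2.06, 9.73 and 11.8 FPKM (-1.65), and PGC-1α alone was low. Sesn2, a stress-induced inhibitor of mTORC1, had 23.8, 14.5, 20.96 and 19.4 FPKM (-0.68). These genes share the lowest value in PGC-1α. Nupr1, a stress-induced chromatin protein, had 160 FPKM in Ctrl and 103 in PGC-1α (-0.63) and 152 and 82.4 FPKM in the same cells after OGD, with both PGC-1α libraries below both controls. Ern1, the IRE1α sensor of the endoplasmic reticulum, had 18.0, 9.64, 9.87 and 8.68 FPKM (-0.84), so that Ctrl alone was high. Atf4 itself had 314, 221, 367 and 348 FPKM (-0.51), within 1.5-fold of Ctrl and lowest in PGC-1α.

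On the other side of the same list stood Psat1, a serine synthesis enzyme that ATF4 also induces, with 35.3 FPKM in Ctrl and 74.9 in PGC-1α (1.06) and 52.2 and 52.8 FPKM in the same cells after OGD. The reticulum chaperones lay slightly above 0, with Hspa5 (BiP) at 0.26, Hsp90b1 at 0.22, Calr at 0.31 and Dnajb11 at 0.39. Asparagine synthetase, Asns, was at 0.25.

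The promoters of these genes were read for the amino acid response element at which ATF4 binds with C/EBP partners. RefSeq promoters (GRCm38.p6, 250 bases before to 50 after the start) were matched to 8406 of the genes compared. The letters TGATGCAA, or TTGCATCA on the other strand, occurred in 76 of the 8406 promoters (0.904%), in 4 of 405 of the higher genes, in 9 of 467 of the lower genes, and in 6 of 42 genes of the unfolded protein response list. These 6 are shown to set the lower members beside those within 1.5-fold, with the match in capitals and each sequence 5′ to 3′ on the gene's strand.
Chac1, chr2:119351029-119351076, plus strand: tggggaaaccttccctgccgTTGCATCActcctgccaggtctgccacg
Nupr1, chr7:126625553-126625600, minus strand: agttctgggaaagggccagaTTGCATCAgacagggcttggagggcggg
Vldlr, chr19:27216800-27216847, plus strand: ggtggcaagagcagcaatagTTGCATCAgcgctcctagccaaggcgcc
Slc7a11, chr3:50443633-50443699, minus strand: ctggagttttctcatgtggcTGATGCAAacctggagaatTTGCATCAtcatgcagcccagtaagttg
Pycr1, chr11:120643824-120643871, minus strand: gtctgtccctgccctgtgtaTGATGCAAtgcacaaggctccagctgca
Herpud1, chr8:94386297-94386344, plus strand: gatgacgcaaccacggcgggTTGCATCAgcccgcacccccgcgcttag

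Chac1 (-1.65) and Nupr1 (-0.63) were lower, whereas Vldlr (-0.47), Slc7a11 (-0.29), Pycr1 (-0.07) and Herpud1 (0.04) stayed within 1.5-fold although they hold the same letters. The match started 193 bases before the gene start in Chac1, 110 in Nupr1 and 112 in Herpud1. Slc7a11, the cystine transporter, holds 2 matches, one on each strand. For the factors that recruit PGC-1α, the estrogen-related receptor element TCAAGGTCA was present on either strand in 26 of the 8406 promoters (0.309%), in 3 of 405 higher genes (0.741%) and in 0 of 467 lower genes. The nuclear respiratory factor core GCGCATGC was present in 6.52% of all promoters, 6.67% of those of higher genes and 5.35% of those of lower genes. A match in this window is a description of the letters and does not show binding.

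Several growth arrest genes that p53 and stress share were lower as well. Of 38 p53 targets and G1 checkpoint genes, 6 (15.8%, against 5.63% of all genes) were lower and 1 was higher, with a median of -0.08. Gadd45a, which blocks the G2/M transition after damage, had 129 FPKM in Ctrl and 47.7 in PGC-1α (-1.42) and 83.3 and 72.7 FPKM in the same cells after OGD. Gdf15, the stress-secreted cytokine, had 18.5, 7.48, 18.1 and 15.6 FPKM (-1.20). PGC-1α was the lowest library for both genes. Plk2, an early response kinase, had 36.3 FPKM in Ctrl and 21.6 in PGC-1α (-0.72), and in this gene the OGD libraries, at 18.4 and 20.9 FPKM, lay with PGC-1α. Btg2, Sesn2 and Ccng2 (-0.66, not steady) complete the lower genes, and Cdkn2d (0.78), an inhibitor of CDK4, was the higher one and not steady. Cdkn1a, the classical p53 target p21, was at -0.45 and Mdm2 at 0.01.

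**Figure D3:**
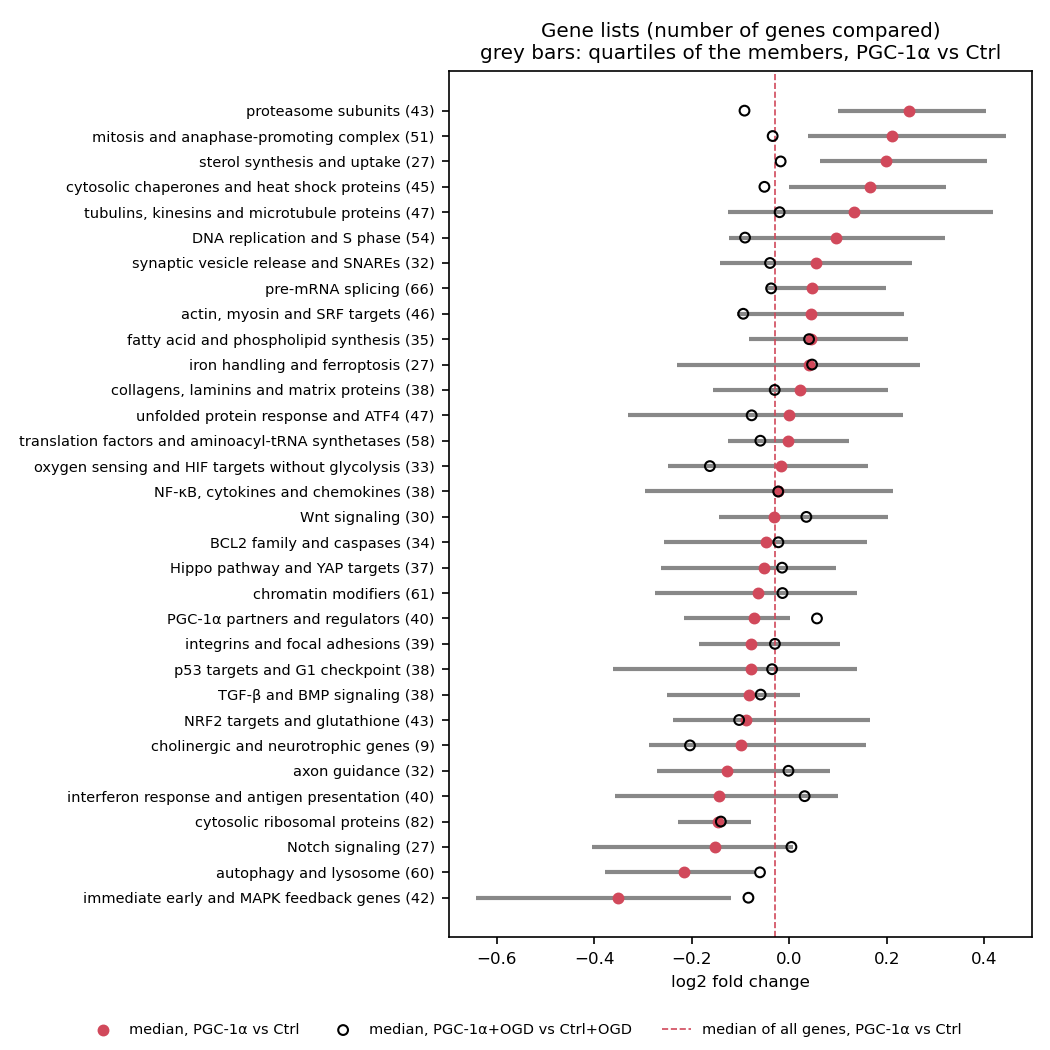
Median log2 fold change of PGC-1α vs Ctrl for each of 32 gene lists (red), with the quartiles of its members (grey bars), beside the median of the same list in PGC-1α+OGD vs Ctrl+OGD (open circles); the dashed line is the median of all genes, -0.03. The lists extend from -0.35 for immediate early genes to 0.25 for proteasome subunits, and 16 medians lie above and 16 below that of all genes.

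Proteasome subunits had the highest median of all lists. The proteasome degrades ubiquitin-tagged proteins through a barrel of α and β subunits capped by a regulatory particle. Of 43 subunits and associated proteins, 37 lay above 0 (86.0%, against 45.8% of all genes) with a median of 0.25. By 1.5-fold, 4 were higher (9.30%, against 4.91% of all genes) and 0 lower. Psmb10, the inducible β subunit of the immunoproteasome, had 3.35 FPKM in Ctrl and 7.59 in PGC-1α (0.98) and 3.99 and 8.85 FPKM in the same cells after OGD. Its log2 fold change in the pair with OGD was also 0.98, and both PGC-1α libraries lay above both controls. Psmb5, the chymotrypsin-like catalytic subunit, had 25.04, 43.2, 46.8 and 44.1 FPKM (0.76), and Adrm1, the ubiquitin receptor of the cap, had 39.5, 60.9, 75.01 and 71.9 FPKM (0.61). Psmd13 (0.92), a lid subunit, was not steady. Apart from Psmb10 these genes were low in Ctrl alone, and Ctrl was the lowest library in 35 of the 43, against 28.1% of all genes. In the pair with OGD the median of the list was -0.09.

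Cytosolic chaperones showed the same direction with few large differences. Of 45 genes, 33 lay above 0 (73.3%, against 45.8% of all genes) with a median of 0.17. By 1.5-fold, 2 were higher (4.44%, against 4.91% of all genes) and 0 lower. Both higher genes encode the inducible HSP70: Hspa1b had 2.41 FPKM in Ctrl and 4.89 in PGC-1α (0.79) and 3.78 and 4.06 FPKM in the same cells after OGD, and Hspa1a had 0.882, 2.05, 1.42 and 1.32 FPKM (0.70). The sequences of Hspa1a and Hspa1b are nearly identical, and their reads may be divided between them in an uncertain way. The abundant members Hspa8 (0.38) and Hsp90aa1 (0.36) stayed within 1.5-fold. Ctrl was the lowest library in 31 of the 45 genes, and the median in the pair with OGD was -0.05.

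Genes of mitosis lay mostly above 0. Of 51 genes of mitosis and the anaphase-promoting complex, 43 lay above 0 (84.3%, against 45.8% of all genes) with a median of 0.21. By 1.5-fold, 5 were higher (9.80%, against 4.91% of all genes) and 0 lower. Plk1, the kinase that drives mitotic entry, had 16.6 FPKM in Ctrl and 31.6 in PGC-1α (0.89) and 44.9 and 41.7 FPKM in the same cells after OGD. Cenpf, a kinetochore protein, had 24.1, 37.6, 29.7 and 39.6 FPKM (0.62), and Cenpa, the histone variant of centromeres, had 10.0, 15.7, 20.1 and 22.4 FPKM (0.60), with 0.48 for its highest transcript alone and 0.580 after upper quartile scaling, both within 1.5-fold. Bub3 (0.72), a spindle checkpoint protein, was not steady, and Cdk1 (0.51), Ccnb1 (0.53) and Cdc20 (0.57) came close to the threshold. Ctrl was the lowest library in 41 of the 51 genes and PGC-1α the highest in 3.

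The remaining member, Cdc26, a small subunit of the anaphase-promoting complex, differed most of all. It had 0.758 FPKM in Ctrl and 47.5 in PGC-1α, a log2 fold change of 4.79, and 0.782 and 0.879 FPKM in the same cells after OGD. One of its 2 deposited transcripts carries the whole difference, with 0.113 FPKM in Ctrl and 47.5 in PGC-1α, while the other was listed at 0.645 and 0. The value was high in PGC-1α alone, without a counterpart in PGC-1α+OGD.

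Among 54 genes of DNA replication and S phase, 32 lay above 0 (59.3%, against 45.8% of all genes) with a median of 0.10. Here 1 was higher (1.85%, against 4.91% of all genes) and 2 lower (3.70%, against 5.63%). Ccne1, cyclin E1, had 28.3 FPKM in Ctrl and 45.9 in PGC-1α (0.68) and 47.1 and 49.5 FPKM in the same cells after OGD. Dtl, an adaptor of the ubiquitin ligase that removes the licensing factor Cdt1, had 19.4, 10.4, 12.5 and 20.9 FPKM (-0.84), and Pold1, the catalytic subunit of DNA polymerase δ, had 2.47, 0.894, 1.89 and 1.32 FPKM (-0.87), and -0.35 for its highest transcript. The replication helicase gene Mcm2 (0.34) and the sliding clamp gene Pcna (0.06) stayed within 1.5-fold.

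**Figure D4:**
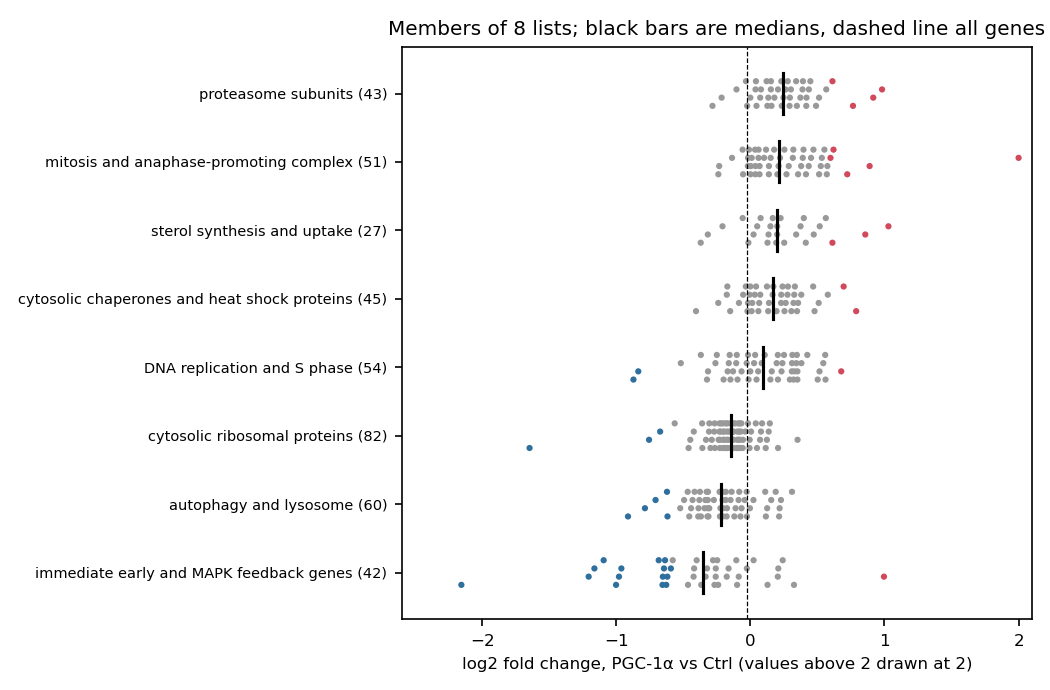
Log2 fold change of PGC-1α vs Ctrl for each gene compared in 8 lists, with 1 point per gene, the list medians as black bars and the median of all genes as a dashed line. Red points are at least 1.5-fold higher and blue points at least 1.5-fold lower; Cdc26, at 4.79, is drawn at 2. Most ribosomal protein genes sit in a narrow band below 0, with a median of -0.15.

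Lysosome and autophagy genes lay mostly below 0. Of 60 genes, 50 lay below 0 (83.3%, against 54.2% of all genes) with a median of -0.22. By 1.5-fold, 5 (8.33%, against 5.63% of all genes) were lower and 0 higher. Atg16l1, which directs LC3 lipidation to the growing autophagosome, had 4.30 FPKM in Ctrl and 1.81 in PGC-1α (-0.91) and 4.34 and 4.11 FPKM in the same cells after OGD, and was low in PGC-1α alone. Gabarapl1, an LC3 relative on the autophagosome membrane, had 35.9, 20.4, 27.4 and 24.9 FPKM (-0.79), and Uvrag, a subunit of the Beclin 1 complex, had 7.05, 3.93, 7.17 and 5.71 FPKM (-0.71). Grn (progranulin, -0.62) and Ctsa (cathepsin A, -0.62) were not steady. Abundant lysosomal genes such as Lamp2 (-0.46), Ctsl (-0.39) and Ctsd (-0.34) had smaller values in the same direction. Ctrl was the highest library in 42 of the 60 genes, and the median in the pair with OGD was -0.06.

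Cytosolic ribosomal proteins had nearly the same median in both pairs of libraries. Of 82 genes, 70 lay below 0 (85.4%, against 54.2% of all genes). The median was -0.15 without OGD and -0.14 in the pair after OGD, and these pairs share no library. PGC-1α was the lowest of the 4 libraries in 60 genes, against 24.4% of all genes. Both PGC-1α libraries lay below both controls in 42 of the 82 genes, against 16.8% of all genes, and above both in 0. The size was small, and 3 genes (3.66%) were lower by 1.5-fold, which is below the 5.63% of all genes. Rps13, a protein of the small subunit, had 156 FPKM in Ctrl and 92.0 in PGC-1α (-0.76) and 143 and 106 FPKM in the same cells after OGD. Rpl22, a protein of the large subunit, had 103, 63.9, 83.0 and 65.9 FPKM (-0.67). Ribosomal protein genes have many processed pseudogenes, so the division of reads among near-identical copies is uncertain.

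Translation factors and aminoacyl-tRNA synthetases, 58 genes, had a median of -0.00. Here 1 gene was higher and 1 lower (1.72% each, against 4.91% and 5.63% of all genes). Farsa, the catalytic subunit of phenylalanyl-tRNA synthetase, had 0.605 FPKM in Ctrl and 4.39 in PGC-1α (1.75) and 5.68 and 9.59 FPKM in the same cells after OGD. The initiation factor Eif5 (-0.62) was the lower one and not steady.

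Sterol genes lay mostly above 0, and Ctrl was the lowest library in 21 of 27. Cells make cholesterol through the mevalonate pathway and also take it up from outside, and both are induced by SREBP2. Of these 27 genes, 22 lay above 0 (81.5%, against 45.8% of all genes) with a median of 0.20. By 1.5-fold, 3 were higher (11.1%, against 4.91% of all genes) and 0 lower. Acat2, which makes the acetoacetyl-CoA that starts the pathway, had 4.74 FPKM in Ctrl and 7.76 in PGC-1α (0.61) and 10.6 and 9.35 FPKM in the same cells after OGD. Dhcr7, its last reductase, was not steady as a sum of 6 transcripts, with 3.37, 6.92, 4.17 and 9.41 FPKM (0.86), and both PGC-1α libraries lay above both controls.

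The fatty acid and phospholipid genes, 35 in number, lay on both sides of 0, with a median of 0.04. Here 2 were higher (5.71%, against 4.91% of all genes) and 3 lower (8.57%, against 5.63%). Scd2, a stearoyl-CoA desaturase, had 90.9 FPKM in Ctrl and 154 in PGC-1α (0.75) and 128 and 144 FPKM in the same cells after OGD. The final enzymes of triglyceride synthesis differed from each other: Dgat1 was higher, with 6.57, 10.9, 4.54 and 7.06 FPKM (0.65), and Dgat2 was lower, with 6.41, 3.90, 6.22 and 5.37 FPKM (-0.60). Both lay near the threshold, with 0.54 for the highest transcript of Dgat1 and -0.57 for Dgat2 after median ratio scaling, each within 1.5-fold. Agpat2, which makes phosphatidic acid, had 4.66, 2.23, 3.96 and 5.10 FPKM (-0.81). Chka, the first enzyme of phosphatidylcholine synthesis, had 8.07, 4.65, 5.90 and 3.22 FPKM (-0.68), with the same size in the pair with OGD (-0.71).

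Antioxidant genes outside the mitochondrion differed little as a group. Of 43 NRF2 targets and glutathione genes, 1 was higher (2.33%, against 4.91% of all genes) and 2 lower (4.65%, against 5.63%). Their median was -0.09. Gclm, the modifier subunit of the enzyme that limits glutathione synthesis, had 3.15 FPKM in Ctrl and 9.88 in PGC-1α (1.39) and 6.76 and 6.59 FPKM in the same cells after OGD, and PGC-1α was the highest library. Osgin1, an oxidative stress-induced growth inhibitor, had 9.74, 4.02, 1.28 and 3.31 FPKM (-1.10), and Abcc4, an efflux transporter, had 12.4, 6.40, 8.23 and 10.4 FPKM (-0.86). The classical targets Nqo1 (-0.34) and Hmox1 (0.53) stayed within 1.5-fold.

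Iron handling and ferroptosis genes, 27 compared, had 3 higher (11.1%, against 4.91% of all genes) and 1 lower (3.70%, against 5.63%). Their median was 0.04. Ftl1, the ferritin light chain, had 214 FPKM in Ctrl and 401 in PGC-1α (0.90) and 444 and 470 FPKM in the same cells after OGD, so that Ctrl was low, whereas the heavy chain Fth1 was at -0.24. Aifm2 (FSP1), which keeps coenzyme Q reduced against ferroptosis, had 5.49, 9.21, 4.64 and 7.12 FPKM (0.66; 0.52 for its highest transcript, within 1.5-fold), and both PGC-1α libraries lay above both controls. The ferritin autophagy receptor Ncoa4 (1.43) and ceruloplasmin, Cp (-0.69), were not steady. Among 33 oxygen sensing and HIF target genes outside glycolysis, 1 was higher and 1 lower (3.03% each, against 4.91% and 5.63% of all genes). Their median was -0.02. Higd1a, a hypoxia-induced mitochondrial protein, had 20.7, 34.9, 34.5 and 32.9 FPKM (0.72), so that Ctrl alone was low, and its highest transcript was at 0.41, within 1.5-fold. Kdm6b, a histone H3K27 demethylase, had 25.5, 15.2, 19.1 and 16.6 FPKM (-0.70).

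In the BCL2 family and caspase list, 2 of 34 genes were higher and 3 lower, with a median of -0.05. These shares, 5.88% and 8.82%, stand against 4.91% and 5.63% of all genes. Aifm1, the apoptosis-inducing factor that in healthy mitochondria serves respiratory chain assembly, had 16.5 FPKM in Ctrl and 55.2 in PGC-1α (1.68) and 41.9 and 55.3 FPKM in the same cells after OGD. Bbc3, the p53-induced killer PUMA, had 7.89, 3.85, 4.33 and 5.01 FPKM (-0.87), and Htra2, a mitochondrial protease released in apoptosis, had 3.80, 1.13, 2.58 and 3.56 FPKM (-1.17). Bcl2l2, a survival protein, was at -0.63, but it shares exons with Gm20521, and the sum of the locus gave -0.26 and its highest transcript -0.25. Bcl2l1 (0.61), which encodes BCL-XL, was not steady.

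Chromatin modifiers, 61 genes, held 2 higher genes (3.28%, against 4.91% of all genes) and 5 lower genes (8.20%, against 5.63%). Their median was -0.06. The class IIa histone deacetylases went in opposite directions. Hdac5 had 18.8 FPKM in Ctrl and 6.63 in PGC-1α (-1.38) and 9.85 and 9.06 FPKM in the same cells after OGD, and Hdac7 had 4.27, 11.0, 5.18 and 9.40 FPKM (1.19). Ctrl stood high for Hdac5, while both PGC-1α libraries stood above both controls for Hdac7. Tet2, a 5-methylcytosine oxidase, had 7.86, 4.28, 4.26 and 3.71 FPKM (-0.75). The Polycomb genes Suz12 (-0.65) and Ezh1 (-0.63) were lower. Suz12 had 34.8, 21.8, 40.5 and 41.997 FPKM and was low in PGC-1α alone, while Ezh1 had 24.7, 15.7, 15.6 and 15.3 FPKM and was high in Ctrl alone, with -0.40 for its highest transcript, within 1.5-fold. The bromodomain gene Brd2 (-1.12) was lower and not steady.

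Of 66 splicing genes, 4 were higher (6.06%, against 4.91% of all genes) and 3 lower (4.55%, against 5.63%). Their median was 0.05. Prpf19, the ubiquitin ligase of the spliceosome, had 21.3 FPKM in Ctrl and 43.0 in PGC-1α (0.98) and 39.1 and 51.5 FPKM in the same cells after OGD. Snrpe, a core Sm protein, had 129, 71.4, 98.1 and 150 FPKM (-0.84), and Luc7l, a U1-associated protein, had 9.57, 4.29, 8.83 and 12.1 FPKM (-0.9997). Hnrnpf (1.28), Ddx46 (0.78), Rbm5 (0.69) and Tra2a (-0.88) were not steady.

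Microtubule genes held more higher genes than the background. Of 47 genes, 6 (12.8%, against 4.91% of all genes) were higher and 3 (6.38%, against 5.63%) were lower. Of the same genes, 31 lay above 0 (66.0%, against 45.8% of all genes) with a median of 0.13. The 15 members with 1 deposited transcript had a median of 0.41. Tuba1a had 50.8 FPKM in Ctrl and 123 in PGC-1α (1.26) and 134 and 79.6 FPKM in the same cells after OGD, Tuba4a had 5.25, 12.9, 8.81 and 13.1 FPKM (1.16), and Tubb2a had 14.6, 28.6, 24.8 and 23.8 FPKM (0.92). All 3 encode tubulin subunits and were lowest in Ctrl. Tubb6 was at 0.61. Map1a, a neuronal microtubule-associated protein, had 6.14, 12.01, 6.75 and 11.2 FPKM (0.86), with both PGC-1α libraries above both controls. Tubulin genes resemble each other in sequence, so the division of reads between them is uncertain. Epb41 (1.32), Pafah1b1 (-0.75), Clasp2 (-0.70) and Kif5a (-0.69) were not steady.

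Actin, myosin and SRF target genes, 46 in number, had 3 higher (6.52%, against 4.91% of all genes) and 1 lower (2.17%, against 5.63%). Their median was 0.04. Pfn1, the actin monomer-binding profilin, had 297 FPKM in Ctrl and 503 in PGC-1α (0.76) and 607 and 570 FPKM in the same cells after OGD. Limk1 (0.80), Tpm1 (0.68) and Actg1 (-0.93) were not steady. Of 39 integrin and focal adhesion genes, 1 was higher (2.56%, against 4.91% of all genes), namely Tns3 (0.67), an adhesion adaptor. None was lower, and the median was -0.08. Of 38 matrix genes, 2 were higher and 2 lower (5.26% each, against 4.91% and 5.63% of all genes). Their median was 0.02. Adamts5, the aggrecan-cleaving protease, had 3.88, 9.33, 2.48 and 3.56 FPKM (1.08) and was high in PGC-1α alone. Col3a1 was at 0.61. The laminin chain gene Lamc1 had 106, 58.9, 58.2 and 81.6 FPKM (-0.83), but 1 of its 2 transcripts, with 43.1 and 0.966 FPKM in Ctrl and PGC-1α, carried the difference, and its highest transcript was at -0.11. Col18a1 (-0.62) was not steady.

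The Notch list was among the lower ones. Of 27 genes, 20 lay below 0 (74.1%, against 54.2% of all genes) with a median of -0.15. By 1.5-fold, 3 were lower (11.1%, against 5.63% of all genes) and 1 higher. Rbpj, the DNA-binding factor of the pathway, had 30.4 FPKM in Ctrl and 10.9 in PGC-1α (-1.40) and 20.99 and 20.1 FPKM in the same cells after OGD. Its coactivator Maml2 had 12.7, 7.11, 7.42 and 8.86 FPKM (-0.75), and Aph1b, a γ-secretase subunit, had 1.85, 0.743, 1.43 and 1.44 FPKM (-0.71). Rfng, a glycosyltransferase that modifies Notch, had 3.16, 7.29, 6.28 and 9.13 FPKM (0.99). The target genes Hes1 (0.20) and Hey1 (0.09) stayed within 1.5-fold. The median in the pair with OGD was 0.00.

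Of 38 TGF-β and BMP genes, 3 were lower (7.89%, against 5.63% of all genes) and 1 higher (2.63%, against 4.91%). Their median was -0.08. Grem1, a secreted BMP antagonist, had 6.54 FPKM in Ctrl and 1.94 in PGC-1α (-1.36) and 3.54 and 1.347 FPKM in the same cells after OGD, and Id3, a BMP target, had 19.5, 39.7, 32.0 and 29.3 FPKM (0.99). Both PGC-1α libraries lay below both controls for Grem1. Gdf15 is also in this list, and Tgif1 (-1.25) was not steady. Of 30 Wnt genes, 3 were higher (10%, against 4.91% of all genes) and 2 lower (6.67%, against 5.63%). Their median was -0.03. Apc, the scaffold that destroys β-catenin, was at 0.82 with 4.58, 8.82, 8.27 and 10.7 FPKM. Dvl2 was at 0.93 with 1.08 and 2.95 FPKM, while both OGD libraries had above 12 FPKM, and its highest transcript, at 0.10, stayed within 1.5-fold. Tcf12 (0.72), Myc (-1.21) and Ctnnb1 (-0.72), the β-catenin gene, were not steady. In the Hippo list of 37 genes, Amotl2 (0.83) was higher and Taok1 (-0.89) lower, neither was steady, and the median was -0.05. Each makes up 2.70% of the list, against 4.91% (higher) and 5.63% (lower) of all genes.

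Of 40 interferon and antigen presentation genes, 26 (65.0%, against 54.2% of all genes) lay below 0, with a median of -0.14. By 1.5-fold, 4 were lower (10.0%, against 5.63% of all genes) and 1 higher, and Ctrl was the highest library in 24. H2-T23, a nonclassical class I molecule, had 9.17 FPKM in Ctrl and 4.66 in PGC-1α (-0.85) and 3.10 and 1.40 FPKM in the same cells after OGD. Tap2, a subunit of the peptide transporter, had 34.2, 20.8, 18.4 and 30.7 FPKM (-0.69), and Nlrc5, the activator of class I genes, had 7.73, 4.47, 5.49 and 4.40 FPKM (-0.68). Ifitm2 was at -0.71, but it shares exons with Gm45717, and the sum of the locus gave 0.08, within 1.5-fold. Oas1g was higher at low levels, with 1.351, 2.91, 2.32 and 3.61 FPKM (0.74). Of 38 NF-κB and cytokine genes, 1 was higher and 1 lower (2.63% each, against 4.91% and 5.63% of all genes). Their median was -0.02. Ptgs2, the inducible cyclooxygenase COX-2 and also an early response gene, had 3.72, 0.886, 1.349 and 1.07 FPKM (-1.32), with Ctrl alone high. Nfkb1, which encodes the p50 subunit, had 7.42, 13.2, 14.2 and 10.7 FPKM (0.76; 0.57 for its highest transcript, within 1.5-fold).

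Few genes of neuronal function could be compared. Of 44 cholinergic and neurotrophic genes listed, 9 were compared, and 1 (11.1%, against 4.91% of all genes) was higher with none lower. Igf1, a growth factor for neurons and glia, had 1.01 FPKM in Ctrl and 4.86 in PGC-1α (1.55) and 0.576 and 0.979 FPKM in the same cells after OGD, and was high in PGC-1α alone. Bdnf, the brain-derived neurotrophic factor, had 6.96, 5.52, 4.30 and 6.37 FPKM (-0.29), within 1.5-fold. Of 59 synaptic vesicle and SNARE genes listed, 32 were compared, with a median of 0.06. Here 4 were higher (12.5%, against 4.91% of all genes) and 2 lower (6.25%, against 5.63%). Rab3a, a vesicle GTPase, had 3.58, 6.87, 6.52 and 5.96 FPKM (0.78), and Syt13, an atypical synaptotagmin, had 15.05, 26.2, 21.2 and 22.3 FPKM (0.76). Vamp1, a vesicle SNARE, had 4.22, 1.68, 1.42 and 1.43 FPKM (-0.96), but its highest transcript was at -0.02. Napb (1.65) and Stx6 (0.70) were the other higher genes.

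For axon guidance, 32 of 65 genes were compared, with a median of -0.13. Here 2 were higher and 2 lower (6.25% each, against 4.91% and 5.63% of all genes). Sema6b, a transmembrane semaphorin, had 6.91 FPKM in Ctrl and 14.2 in PGC-1α (0.95) and 12.8 and 12.7 FPKM in the same cells after OGD, and the secreted Sema3c had 6.52, 10.9, 8.14 and 8.82 FPKM (0.67). Sema5a had 6.74, 3.45, 6.72 and 4.92 FPKM (-0.80), and Plxna3, a semaphorin receptor, had 4.31, 2.22, 2.75 and 2.40 FPKM (-0.72).

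The lists hold 139 of the genes past 1.5-fold, and 910 such genes belong neither to a list nor to energy metabolism. Among the 15 steady genes with the largest higher values outside energy metabolism, many had almost no signal in Ctrl. Arrdc3, an arrestin-like protein that controls receptor traffic and energy expenditure, had 1.71 FPKM in Ctrl and 12.3 in PGC-1α (2.30) and 1.14 and 1.57 FPKM in the same cells after OGD, and it has 1 deposited transcript. Plscr2, a phospholipid scramblase, had 2.03, 11.7, 0.653 and 3.03 FPKM (2.07). Matr3, a nuclear matrix RNA-binding protein, had 5.77, 22.96, 7.02 and 28.9 FPKM (1.82), and it shares exons with Gm28285. Pigq, an enzyme of GPI anchor synthesis, had 2.49, 10.9, 2.76 and 8.71 FPKM (1.77). Matr3, Pigq and Plscr2 were higher in PGC-1α in both pairs, and Arrdc3 without OGD alone.

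Fcho2 (1.77), an initiator of clathrin-coated pits, Vac14 (1.77), the scaffold of the kinase that makes PI(3,5)P2, and Rbmx (1.74), an RNA-binding protein, were lowest in Ctrl. Vac14 had 4.29 FPKM in Ctrl and 17.0 in PGC-1α, and 11.996 and 21.1 FPKM in the same cells after OGD. It was higher in the pair with OGD as well (0.76). Atp11b, a phospholipid flippase with 1 deposited transcript, had 1.03, 16.6, 18.6 and 9.46 FPKM (3.12), and Prrt2, a presynaptic protein, had 0.812, 12.1, 12.4 and 1.26 FPKM (2.85), and 1.77 for the locus it shares with Gm42742. Ctrl was the lowest library for both of these genes.

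Some of the largest values belong to genes that share exons with others. Gm45717 (0.515 FPKM in Ctrl, 71.1 in PGC-1α and listed at 0 after OGD) shares exons with Ifitm2 and Ifitm5, and the locus sum differed by 0.08. Zbed6 (3.71) lies within Zc3h11a, and the locus gave 0.44. Gm20390 (2.22) overlaps Nme1 and Nme2, and the locus gave 0.15. Gm20388, listed at 19.3 FPKM in Ctrl and at 0 in PGC-1α (-4.34), overlaps Galnt2 and Usp10, and the locus gave 0.10. These 4 locus sums stayed within 1.5-fold. Pcdhgc3, a clustered protocadherin, shares its last exons with many γ-protocadherin genes and had 1.05, 19.0, 1.46 and 30.5 FPKM (3.28), and the locus gave 2.41. Pigq, Tuba1a, Gclm, Ftl1 and Col3a1 also share exons with annotated genes, none of which is listed in the table used here.

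**Figure D5:**
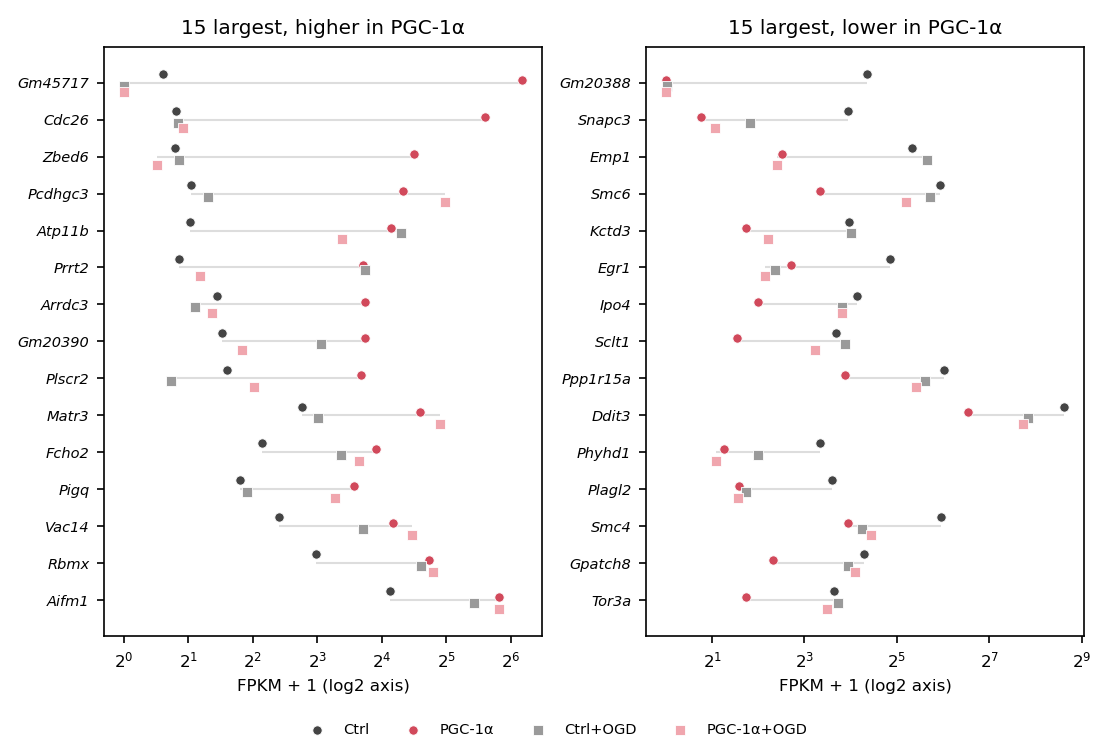
FPKM + 1 on a log2 axis in the 4 libraries for the 15 steady genes with the largest higher values (left) and the 15 with the largest lower values (right) in PGC-1α vs Ctrl outside energy metabolism; circles are libraries without OGD and squares libraries after OGD. Emp1 and Kctd3 show both PGC-1α libraries apart from both controls, and Smc4, Egr1 and Plagl2 show Ctrl apart from the other 3.

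On the lower side, Emp1, an epithelial membrane protein of cell junctions and migration, differed in both pairs of libraries. It had 39.0 FPKM in Ctrl and 4.75 in PGC-1α, and 49.6 and 4.29 FPKM in the same cells after OGD, with log2 fold changes of -2.80 without OGD and -3.26 with it, and both deposited transcripts differed alike. Kctd3, an adaptor of ion channels, had 14.6, 2.31, 15.1 and 3.63 FPKM (-2.24), and -1.80 in the pair with OGD. Emp1 lies on chromosome 6 from 135362545 to 135383173 and Kctd3 on chromosome 1 from 188971095 to 189007841 of GRCm38.

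A further set had its lowest value in PGC-1α. Smc6, of the complex that resolves recombination intermediates, had 59.8 FPKM in Ctrl and 9.16 in PGC-1α (-2.58) and 51.7 and 35.5 FPKM in the same cells after OGD. Ipo4, an importin, had 16.7, 2.99, 13.0 and 13.0 FPKM (-2.15) and shares exons with Gm49378. Sclt1 (-2.13), a centriole protein needed for cilia, Gpatch8 (-1.99), a G-patch protein, and Tor3a (-1.90), an AAA ATPase of the endoplasmic reticulum, were also lowest in PGC-1α. Sclt1 had 11.8, 1.93, 13.8 and 8.33 FPKM and was lower in the pair with OGD as well (-0.66). Smc6 was at -0.53 in that pair, within 1.5-fold.

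Another set was highest in Ctrl, and the OGD libraries lay nearer to PGC-1α. Snapc3, a subunit of the complex that transcribes small nuclear RNA genes, had 14.3 FPKM in Ctrl and 0.692 in PGC-1α (-3.18) and 2.55 and 1.10 FPKM in the same cells after OGD. Smc4, a condensin subunit, had 60.8, 14.3, 17.8 and 20.6 FPKM (-2.02), and Plagl2, a zinc finger factor, had 11.1, 1.99, 2.31 and 1.97 FPKM (-2.02). Phyhd1, a dioxygenase, had 9.04, 1.38, 2.99 and 1.12 FPKM (-2.08) and shares exons with Gm28035 and Gm28038. Snapc3 and Phyhd1 were also lower in the pair with OGD, at -0.76 and -0.91, with both PGC-1α libraries below both controls.

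Of the 120 genes named by rule, 18 were past 1.5-fold in the same direction in both pairs of libraries and 10 in opposite directions. The 120 genes were chosen for passing 1.5-fold without OGD, so these counts do not measure agreement between the pairs. Side by side, the log2 fold changes without and with OGD were 4.25 and 3.09 for Ppargc1a, 1.82 and 1.90 for Matr3, 0.98 and 0.98 for Psmb10, 1.19 and 0.75 for Hdac7, and 0.86 and 0.65 for Map1a. On the lower side they were -2.80 and -3.26 for Emp1, -2.24 and -1.80 for Kctd3, -1.36 and -0.95 for Grem1, -0.85 and -0.77 for H2-T23, and -0.68 and -0.71 for Chka. Ddit3 and Egr1 did not belong to this set, with -2.09 and -0.11 for Ddit3 and -2.16 and -0.21 for Egr1.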

How the data were processed

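The 4 RNA-Seq libraries of HT-22 cells, 1 for each condition, were assigned by their sample titles. The submitters' processing notes name HISAT2 2.1.0 and GRCm38, and the reads came from a stranded poly(A) protocol. The authors deposited 1 table of values for 25889 transcripts, taken here as FPKM, since no value is negative and columns sum to between 331892 and 353381; the table names no unit, and the program behind it is not given in the sources used here. Depth is unknown, since at most 48.8% of low values fell near whole-read steps, and counting error cannot be given.

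Identifiers without version were looked up in GENCODE release M21 (25822 matched, 67 not) and summed per symbol, and log2(FPKM + 1) was compared without further scaling at a mean of at least 1 FPKM. Energy metabolism genes (393 compared) were left out of the named genes. The 32 lists were written from general knowledge. Members and lists were chosen with earlier results of these data known. Named genes are Ppargc1a, the 15 largest higher and 15 largest lower steady genes averaging at least 5 FPKM in Ctrl and PGC-1α outside energy metabolism, up to 5 steady members per list past 1.5-fold, and members needed to account for counts of 5 or fewer; other genes of a list were picked for their known role after their values were seen. Exons shared on the same strand were taken from GENCODE. Alternatives were pseudocounts of 0.1 and 0.01, other filters, 2 scalings, the transcript with the highest mean over the libraries (the highest transcript), genes with 1 transcript, 2-fold, and, chosen after seeing the data, leaving out or summing genes that share exons. Calculations were run with pandas 2.3.3 and numpy 2.4.6 in Python 3.11.15, and figures were drawn with matplotlib 3.10.9. The code was tested on simulated data for PGC-1α vs Ctrl, without noise and with changes set well past 1.5-fold. There 200 of 200 changed genes among 10604 were recovered, which checks the code and not detection in single libraries. Promoter sequences are from RefSeq. A few genes that the counts include are not reported here by name.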

Additional observations from a re-analysis of the deposited data

Results flagged for a closer look

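For 10 named genes, PGC-1α differed from control past 1.5-fold in opposite directions without and with OGD. With 1 library per condition, the difference between the pairs was not tested. In PGC-1α+OGD vs Ctrl+OGD, the log2 fold change was -0.90 for Atp11b, -2.56 for Prrt2, -1.23 for Gm20390, -0.75 for Tuba1a, -1.49 for Napb and -1.01 for Stx6, all of which were higher in PGC-1α vs Ctrl. It was 0.70 for Dtl, 0.92 for Osgin1, 0.61 for Snrpe and 0.71 for Tap2, all of which were lower in PGC-1α vs Ctrl. Among all 10604 genes, 100 differed past 1.5-fold in opposite directions in the 2 pairs. The base to set beside the named genes is the 1118 genes past 1.5-fold in PGC-1α vs Ctrl. The 120 named genes were chosen from these 1118 genes, and the 1118 genes also include all 100. Thus 10 of 120 named genes stand beside 100 of 1118 genes.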

How the results depend on the processing

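The main counts of 521 higher, 597 lower and 880 steady genes past 1.5-fold depended on the threshold and on how transcripts were treated. With the highest transcript standing for each gene there were 814 higher and 971 lower genes; among genes with 1 deposited transcript there were 197 higher and 201 lower, 398 steady in all. A threshold of 2-fold gave 156 higher, 162 lower and 271 steady genes, and a mean of at least 5 FPKM gave 363 lower and 539 steady genes. These settings test fewer genes or count other values by construction. Pseudocounts, no low filter and the scalings moved no count by over 1.5 times, and higher genes made up between 43.6% and 52.1% of those past the threshold, against 46.6% in the main setting. When overlapping genes were summed, Gm20388 turned to 0.10 and Ifitm2 to 0.084. With the highest transcript 11 named genes came within 1.5-fold, namely Aifm2, Bcl2l2, Cenpa, Dgat1, Dvl2, Ezh1, Higd1a, Lamc1, Nfkb1, Pold1 and Vamp1, and so did Cenpa with upper quartile and Dgat2 with median ratio scaling. Of the 32 list medians, 3 moved by more than 0.1 with 1-transcript genes alone, and none did with the other pseudocounts, filters on low values, scalings or the highest transcript. No paired analysis was possible because each condition has 1 library and the groups share 1 replicate number. With 1 library per condition and unknown depth, neither biological nor counting error of any value is known.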

Other observations

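The gene groups below are covered by no list. They were written out as whole families after their values were seen, and they are given as values alone. Of 22 circadian clock genes compared, 5 were lower and 0 higher, with a median of -0.13. Over all genes, 5.63% were lower and 4.91% higher, for this and the following groups, and the groups were chosen for their values. Nfil3, a repressor of the clock's output genes, had 20.2 FPKM in Ctrl and 11.3 in PGC-1α (-0.79) and 11.4 and 8.66 FPKM in the same cells after OGD. The output factor Dbp had 13.2, 7.41, 9.99 and 10.6 FPKM (-0.76), lowest in PGC-1α and highest in Ctrl with the OGD libraries in between. Per2, a core repressor, had 13.3, 8.11, 8.09 and 8.85 FPKM (-0.65) and was high in Ctrl alone. Ciart (-0.82) was lower as well, and the core activators Arntl (-0.27) and Clock (0.18) stayed within 1.5-fold.

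Of 16 genes of sialic acid synthesis and transfer, 4 were higher and 0 lower, with a median of 0.09. Slc35a1, which carries CMP-sialic acid into the Golgi, had 7.41 FPKM in Ctrl and 24.7 in PGC-1α (1.61) and 18.1 and 26.2 FPKM in the same cells after OGD. St3gal5, the synthase of the ganglioside GM3, had 6.57, 14.7, 7.58 and 10.3 FPKM (1.05). St6galnac4 (0.70) and St3gal2 (0.62) followed. Both PGC-1α libraries lay above both controls for all 4 of these genes, as in 266 of all 521 higher genes. Smc4 and Smc6 were the 2 lower genes among 27 of the SMC complexes, whose median was 0.04. Of 28 importins, exportins and Ran regulators, 2 were higher and 4 lower with a median of 0.11. Cse1l, the exportin that recycles importin α, had 21.7, 7.85, 36.9 and 8.37 FPKM (-1.36), and was low in both PGC-1α libraries.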
